A study of Mus musculus with 2 samples.

Results

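The ATF4 branch of the integrated stress response was examined as 10 genes taken by name from the pathway: Atf4, Ddit3, Trib3, Chac1, Ddit4, Ppp1r15a, Sesn2, Asns, Atf5 and Cebpg. Every non-control spot whose gene name in the scanner files equalled one of these names was used. The 10 genes had 11 of the 55681 non-control probes, 2 for Atf4 and 1 for each other gene, and all 10 were among the 21219 genes well above background on both arrays. RNA of mouse cells labelled as the line GT1-7 was hybridised to 1-colour Agilent arrays with probes of 60 nt. The GnRH group (1 array) was cells given 50 nM GnRH, the hypothalamic decapeptide that drives pituitary gonadotropin release, for 30 min, and the vehicle group (1 array) was cells given DMSO for 30 min. The description field of both samples names bradykinin and A549 cells instead, and the groups here follow the treatment labels. GT1-7 is a single immortalised line, known as derived from a mouse hypothalamic tumour made with a viral oncogene under the GnRH gene's promoter.

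With 1 array per group no difference could be tested. All values describe these 2 arrays, and the number of arrays limits their precision. Both arrays lay on 1 slide. Well above background were 56.9% of the non-control spots of the GnRH array and 55.2% of those of the vehicle array. No spot was saturated, and neither array marked a spot of the 10 genes as an outlier. Of 7 GnRH neuron markers 3 were measured, with summed signals of 159 on the GnRH array and 184 on the vehicle array, and both arrays left Gnrh1, Six6, Nhlh2 and Meis1 not well above background. Of 7 gonadotrope markers 6 were measured, among them Gnrhr, Cga and Pitx1, with summed signals of 160940 on the GnRH array and 182238 on the vehicle array. Cga alone read 69481 on the GnRH array and 80508 on the vehicle array. Lhb was dim, at 72.1 on the GnRH array and 71.5 on the vehicle array, and both arrays left Fshb not well above background. The general neuron markers that were measured had summed signals of 62304 on the GnRH array and 65910 on the vehicle array. The GnRH neuron and gonadotrope markers go against the GT1-7 label, so which cells the values describe is uncertain, and no other cell name is given here. The peptide's early targets differed widely, with Egr1 at a signal of 24361 on the GnRH array and 73.5 on the vehicle array, while of 4 common reference genes Gapdh differed by 0.00 ± 0.20, Hprt by -0.02 ± 0.06, Actb by 0.16 ± 0.20 and Tbp by 0.17 ± 0.20 on the log2 scale. The values of Actb and Tbp are about as large as those of Trib3 and Cebpg below. Of the markers of other cells, those measured were 5 of 7 neuron, 1 of 6 epithelial, 3 of 6 astrocyte, 5 of 6 oligodendrocyte, 3 of 6 microglia and macrophage and 3 of 7 fibroblast and endothelial markers, with list medians of -0.03, 0.21, 0.05, -0.05, -0.04 and 0.00 in that order. Their part in the results was not tested.

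As background, the integrated stress response begins when one of several kinases phosphorylates the translation factor eIF2 during amino acid shortage, protein misfolding in the endoplasmic reticulum, viral RNA or haem shortage. Most translation then falls, while the mRNA of the transcription factor ATF4 is translated more, because short reading frames ahead of its coding sequence no longer hold it back. ATF4 pairs with other basic leucine zipper (bZIP) proteins and acts on genes of amino acid supply, redox balance, growth control and, through CHOP, cell death. Several of these genes also answer to other signals, such as growth factors, calcium and cAMP.

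The promoters of 3 of the genes are shown because they hold letters linked to ATF4 or to cAMP-responsive factors. The sequences are those of RefSeq on build GRCm38.p6. Each is the 250 bases ahead of the annotated start, written 5′ to 3′ on the gene's strand. Capitals mark a match to TGATGNAA, the core of composite C/EBP-ATF elements, or to TGACGTCA, the cAMP response element. Ppp1r15a lies at chr7:45526269-45526518, minus strand, Chac1 at chr2:119350992-119351241, plus strand, and Asns at chr6:7693210-7693459, minus strand.
Ppp1r15a: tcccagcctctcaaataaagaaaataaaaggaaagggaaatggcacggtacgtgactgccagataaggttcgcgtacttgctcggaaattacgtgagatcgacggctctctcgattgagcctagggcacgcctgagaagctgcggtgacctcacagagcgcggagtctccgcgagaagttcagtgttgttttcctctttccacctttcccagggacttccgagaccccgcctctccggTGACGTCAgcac
Chac1: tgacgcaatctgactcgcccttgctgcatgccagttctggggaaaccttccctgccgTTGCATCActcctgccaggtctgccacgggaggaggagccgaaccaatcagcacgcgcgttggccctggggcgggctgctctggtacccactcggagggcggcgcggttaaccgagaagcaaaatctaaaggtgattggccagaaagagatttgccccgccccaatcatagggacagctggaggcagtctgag
Asns: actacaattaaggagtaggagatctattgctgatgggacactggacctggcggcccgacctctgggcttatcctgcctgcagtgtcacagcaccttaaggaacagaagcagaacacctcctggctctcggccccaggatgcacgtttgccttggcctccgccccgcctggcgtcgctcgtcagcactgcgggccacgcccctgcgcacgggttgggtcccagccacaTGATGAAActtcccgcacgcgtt

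All 10 genes had a promoter window of 300 bases, from 250 ahead of the start to 50 after it; Atf5 had 2 starts, which makes 11 windows. On either strand, TGATGNAA was found for 3 of 10 genes, Asns, Chac1 and Trib3, against 3.97% of all 32851 windows. The match of Trib3 lay after the start, at 15 to 22, that of Asns at -23 to -16 and that of Chac1 at -193 to -186. The match of Chac1 was the full TTGCATCA, one form of TGATGNAA on the other strand, which 0.895% of all windows held and no other of the 10 genes did. Ppp1r15a alone held TGACGTCA, at -12 to -5, against 1.79% of all windows. CCAAT, the box of NF-Y, was found for 7 of 10 genes (all but Asns, Ppp1r15a and Trib3), against 37.4% of windows. A match is a description of letters and not a binding site.

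The 10 genes differed unevenly between the arrays. Ppp1r15a, Chac1 and Ddit4 were each about 1.6-fold higher on the GnRH array, Ddit3 and Atf4 were 1.4-fold higher, Sesn2 1.2-fold higher, and Asns and Atf5 were level. At least 1.5-fold higher were 3 of 10 genes, against 1.19% of all 21219 measured genes, and none was 1.5-fold lower, against 0.881%. None reached 2-fold higher, against 0.311% of all genes. The 10 genes were chosen with earlier results of these data known. Those results put none of the 10 past 2-fold, and the 1.5-fold mark was set for that reason. The counts are therefore not independent of the values and serve as description only. At 1.2-fold, 6 of 10 were higher, against 6.19% of all genes, and none was lower, against 5.57%. The median log2 difference of the 10 genes was 0.37, beside -0.01 for all measured genes. These are whole cultures, in which fewer cells expressing a gene and less RNA per cell cannot be told apart. Within the range of mean signal that the 10 genes span, which leaves out dim probes, 45 of 9652 genes (0.466%) were 1.5-fold higher and 4 (0.0414%) were 1.5-fold lower. At 1.2-fold, 136 of them (1.41%) were higher and 43 (0.446%) lower.

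Signals below are the scanner's processed signals on a linear scale. Log2 differences are GnRH minus vehicle after each array was divided by its 75th percentile, 541 on the GnRH array and 578 on the vehicle array. The ± is the scanner software's error estimate for both arrays together, about 0.20 for each of the 10 genes, and comes mostly from the software's multiplicative setting of 0.1. For probes with several spots the spot errors were averaged as if independent. The smaller ± of Hprt (0.06), Fos (0.07) and Vegfa (0.14) reflects this averaging and does not by itself mean a better measured gene. A measured error was smaller: 148 probes printed 10 times, in the same range of signal, had single-spot differences with an SD of 0.05. Neither error holds the spread between cultures, which was not measured.

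**Figure D1:**
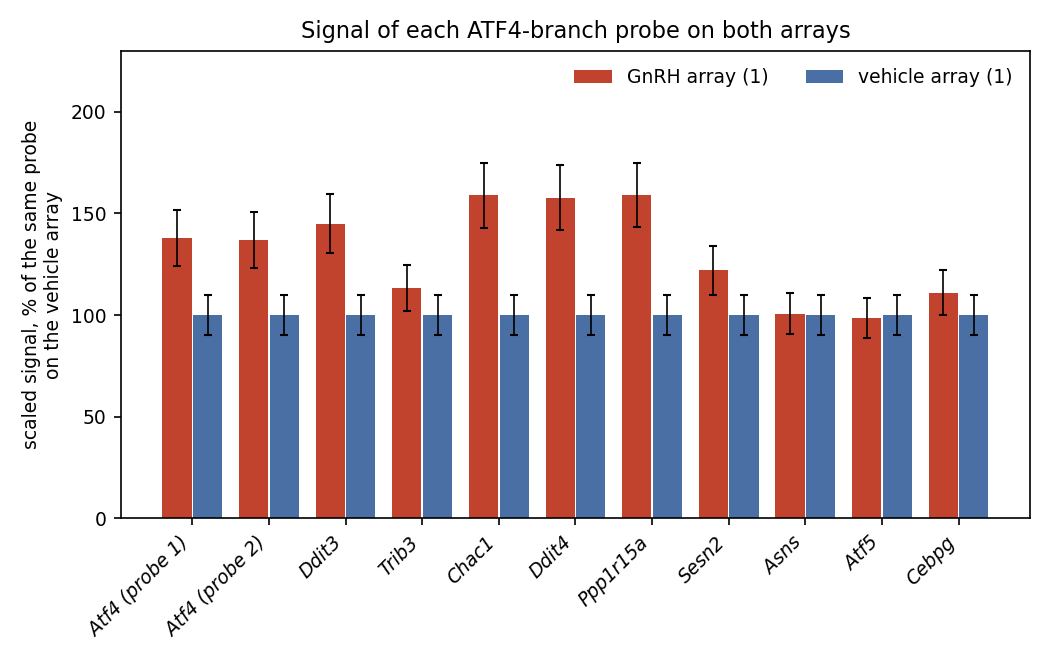
Bars give the scaled signal of each of the 11 probes as a percent of the same probe on the vehicle array, GnRH array (1) left and vehicle array (1) right; error bars are the scanner error of each array. The GnRH bars of Chac1, Ddit4 and Ppp1r15a stand near 1.6 times the vehicle bars and those of Asns and Atf5 level with them.

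Among the transcription factors, Atf4 encodes the effector that names the branch. Its brighter probe read 136876 on the GnRH array and 106089 on the vehicle array, a log2 difference of 0.46 ± 0.20 (1.38-fold). The other Atf4 probe read 4562 on the GnRH array and 3555 on the vehicle array, a difference of 0.45 ± 0.20. The probes lie apart on chromosome 15, at 80087902 to 80087961 and 80086639 to 80086698 in build mm9, and their differences were 0.01 apart, well inside the scanner error of 0.29. At the bright end of the array differences were small: of 414 genes within 0.5 log2 units of the brighter probe's mean signal, 1 had a larger difference, and the SD of all 414 was 0.06. Ddit3 encodes CHOP, the bZIP factor that ATF4 induces and that promotes cell death when stress lasts. It read 1014 on the GnRH array and 747 on the vehicle array, a difference of 0.53 ± 0.20. Its probe covers a genomic span of 304 bases on chromosome 10 (126732518 to 126732821, mm9), longer than the probe itself.

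The remaining bZIP members stayed inside the scanner error. Atf5, a relative of ATF4 with similar translational control, read 53215 on the GnRH array and 57621 on the vehicle array, a difference of -0.02 ± 0.20, whose sign turned under some settings (-0.05 to 0.01). Cebpg, which encodes a C/EBP protein that pairs with ATF4, read 1074 on the GnRH array and 1034 on the vehicle array, at 0.15 ± 0.20. Their probes lie on chromosome 7 at 52067627 to 52067686 and at 35835477 to 35835536 (mm9).

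The feedback regulators split. Ppp1r15a encodes GADD34, the inducible subunit that directs protein phosphatase 1 to eIF2 and restores translation. It read 11409 on the GnRH array and 7662 on the vehicle array, a difference of 0.67 ± 0.20 (1.59-fold). This was the highest of the 10 genes by 0.002, and Chac1 was above it with quantile normalization (0.68 against 0.67) and in the authors' deposited values. Of the 21219 genes, 181 had a larger difference, and of 1557 genes of like signal 4 did. Trib3 encodes a pseudokinase that binds ATF4 and CHOP and dampens their action. It read 4562 on the GnRH array and 4301 on the vehicle array, a difference of 0.18 ± 0.20. The gap between Ppp1r15a and Trib3 was 0.49, beyond their combined scanner error of 0.29. Their probes lie on chromosome 7 at 52778320 to 52778379 and chromosome 2 at 152163161 to 152163220 (mm9).

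Of the metabolic targets, Chac1 stood high and Asns did not. Chac1 encodes an enzyme that breaks down glutathione. It read 9055 on the GnRH array and 6089 on the vehicle array, a difference of 0.67 ± 0.20 (1.59-fold), and 6 of 1708 genes of like signal had a larger one. Asns encodes asparagine synthetase, a standard readout of ATF4 in amino acid shortage. It read 72234 on the GnRH array and 76731 on the vehicle array, a difference of 0.01 ± 0.20, whose sign turned under some settings (-0.02 to 0.02). The gap between Chac1 and Asns was 0.66, against a combined scanner error of 0.29. Both promoters hold TGATGNAA at different places, and its part in these values was not tested. Their probes lie on chromosome 2 at 119179990 to 119180049 and on chromosome 6 at 7625171 to 7625228 (mm9).

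Both growth-control genes, whose products restrain the growth kinase complex mTORC1, were higher on the GnRH array. Ddit4, which encodes REDD1 and is known to answer also to hypoxia and glucocorticoids, read 47058 on the GnRH array and 31847 on the vehicle array, a difference of 0.66 ± 0.20 (1.58-fold). Of 619 genes of like signal 3 had a larger difference. Sesn2, which encodes the leucine sensor sestrin 2, read 5565 on the GnRH array and 4873 on the vehicle array, at 0.29 ± 0.20. Their probes lie on chromosome 10 at 59412486 to 59412545 and on chromosome 4 at 132048858 to 132048917 (mm9). No probe is placed in an exon or untranslated region, since gene models of build mm9 were not used here.

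Set against genes of like signal, Sesn2 stood higher than its fold alone shows, with 15 of 1869 genes above it, and Ddit3 had 21 of 2096. Trib3 had 51 of 1897 above it and Cebpg 145 of 2115. Asns (265 of 475) and Atf5 (364 of 523) lay near the middle of theirs. Before scaling, the differences of Asns and Atf5 were -0.09 and -0.11, and those of Ppp1r15a, Chac1 and Ddit4 were 0.57, 0.57 and 0.56.

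In the order of their differences the genes ran Ppp1r15a, Chac1, Ddit4, Ddit3, Atf4, Sesn2, Trib3, Cebpg, Asns and Atf5. No neighbours in this order differed beyond their combined scanner error, with gaps of 0.00 to 0.18. Ppp1r15a differed beyond it from Sesn2 (0.38), Cebpg (0.52) and Atf5 (0.69) and not from Atf4 (0.21). In all, 6 of 10 genes were higher by more than their scanner error, as were 7.34% of all measured genes, and 5 of 10 by more than 2 errors, as were 1.54%. The spots around each of the 11 probes had median log2 differences in raw signal of -0.01 to 0.04, and none of the probes lay in the 3 small areas of the array where neighbouring spots differed together.

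**Figure D2:**
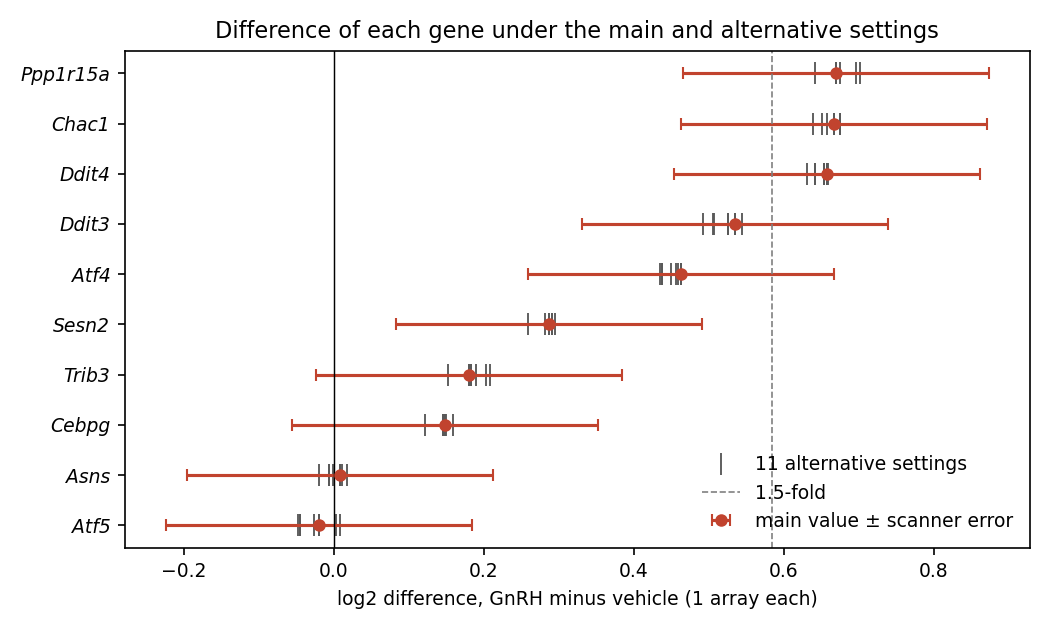
Points give each gene's log2 difference (x axis, GnRH minus vehicle, 1 array each) with the scanner error as bars, and ticks its value under 11 alternative settings; the dashed line is 1.5-fold. Ticks stay within the error bar of every gene, and Ppp1r15a, Chac1 and Ddit4 stay right of the dashed line.

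**Figure D3:**
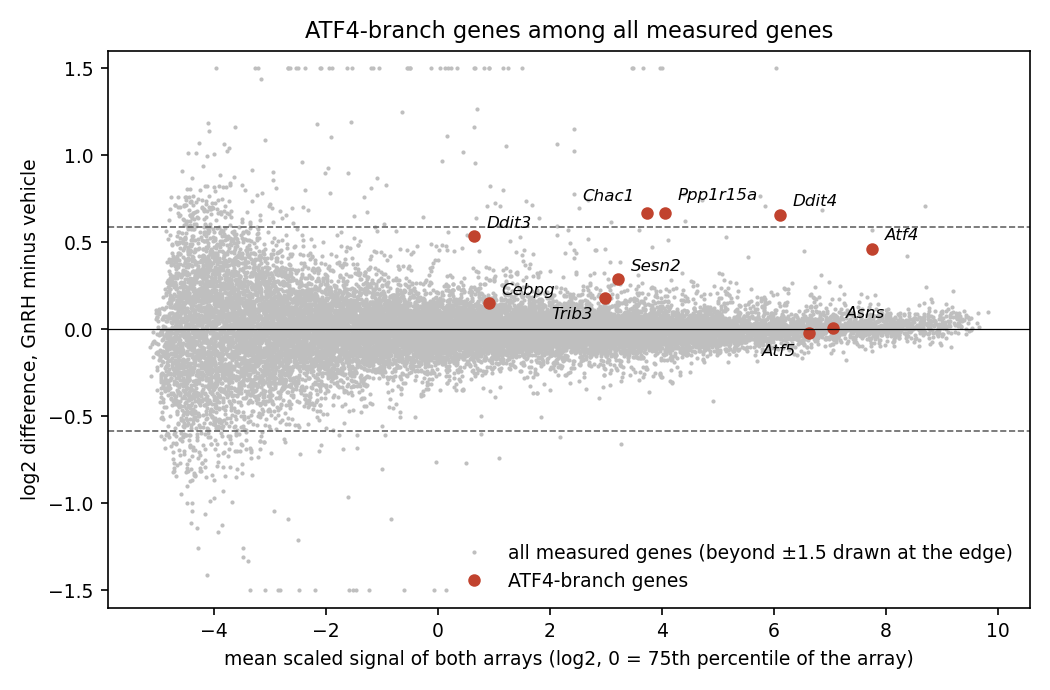
Each grey point is 1 of 21219 measured genes, with its mean scaled signal on the x axis (log2) and its log2 difference, GnRH minus vehicle, on the y axis; red points are the 10 genes and dashed lines mark 1.5-fold. Differences spread widely among dim genes and little among bright ones, where Atf4 (0.46) and Ddit4 (0.66) stand above nearly all others.

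The steps upstream of ATF4 were level between the arrays. The list of eIF2 kinases, phosphatase parts and subunits of eIF2 and its exchange factor eIF2B had 21 of 21 genes measured. The median was 0.01 (-0.02 to 0.02 over the settings tried) and the range -0.09 to 0.16. None was past 1.2-fold in either direction, against 6.19% of all measured genes higher and 5.57% lower. Within the signal range of the 10 ATF4-branch genes the shares were 1.41% and 0.446%, so none among 21 lies near those shares. The kinase genes Eif2ak1 (HRI), Eif2ak2 (PKR), Eif2ak3 (PERK) and Eif2ak4 (GCN2) differed by -0.02, 0.00, 0.09 and 0.05, and the dimmer Eif2ak4 probes read 0.00 and -0.12. Ppp1r15b, the constitutive counterpart of Ppp1r15a, read 557 on the GnRH array and 533 on the vehicle array, a difference of 0.16 ± 0.20, and was the furthest from 0 of the list. Dnajc3, an inhibitor of PERK, followed at 0.13. These are mRNA levels, and phosphorylation of eIF2 and ATF4 protein were not measured.

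ATF4's wider programme of amino acid supply differed little. Of 21 measured genes of amino acid synthesis and transport none was past 1.2-fold, and the median was 0.05. Of all measured genes only 6.19% were 1.2-fold higher and 5.57% lower. Within the signal range of the 10 ATF4-branch genes the shares were 1.41% and 0.446%, so none among 21 lies near those shares. The highest was Slc38a2, which encodes the amino acid transporter SNAT2, with 13885 on the GnRH array and 12470 on the vehicle array (0.25 ± 0.20). After it came Cth (0.19), Slc3a2 (0.16) and Slc7a5 (0.15), the last 2 being the parts of one amino acid exchanger; a further Cth probe gave 0.02. All 20 cytosolic aminoacyl-tRNA synthetase genes, of which ATF4 induces many, lay between -0.08 and 0.12 on their brightest probes, with a median of -0.01. Dimmer probes of Farsa read -0.05 and -0.41 ± 0.21, the latter with 145 on the GnRH array and 206 on the vehicle array. Those of Aars and Wars read -0.16 ± 0.34 and 0.08. Eprs (0.12), Dars (0.09), Gars (0.08) and Qars (-0.08) were the furthest from 0.

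The mRNAs listed for the protein-folding branches were level too, and the activity of ATF6 and XBP1 was not measured. The 20 genes of the ATF6 and XBP1 branch had a median of 0.01 (-0.02 to 0.01 over the settings tried). None was past 1.2-fold, against 6.19% of all measured genes higher and 5.57% lower. Within the signal range of the 10 ATF4-branch genes the shares were 1.41% and 0.446%, so none among 20 lies near those shares. The chaperone gene Hspa5 (BiP) read 66122 on the GnRH array and 66039 on the vehicle array, a difference of 0.10 ± 0.20. Xbp1 was at 0.07 and Dnajb9, a standard target of XBP1, at 0.18 on its brighter probe and 0.09 on the other. Ern1 (-0.21 on its brighter probe and -0.20 on the other), Pdia4 (0.13) and Atf6 (-0.10) were the others furthest from 0.

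The list of other stress-inducible targets was uneven, with a median of 0.05 over 17 of 18 genes. At least 1.5-fold higher were 2, against 1.19% of all measured genes, and none was 1.5-fold lower, against 0.881%. At 1.2-fold 4 were higher and 2 lower, against 6.19% and 5.57%. The 2 past 1.5-fold were Atf3 and Gdf15. Atf3 encodes a bZIP factor that both ATF4 and MAP kinase signals induce, and Gdf15 a secreted stress cytokine. Atf3 read 1819 on the GnRH array and 609 on the vehicle array (1.67 ± 0.20), and Gdf15 read 10317 on the GnRH array and 3680 on the vehicle array (1.58 ± 0.20). Herpud1, an endoplasmic reticulum protein gene, was at 0.48 ± 0.20. Vegfa was at 0.39 ± 0.14. On the lower side Stc2, a dim gene, was at -0.36 ± 0.27 and Gadd45a at -0.27 ± 0.20. Both arrays left Fgf21 not well above background.

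The bZIP partners and relatives of ATF4 had a median of 0.18 over 25 of 27 genes. At least 1.5-fold higher were 5, against 1.19% of all measured genes, and none was 1.5-fold lower, against 0.881%. The 5 were Fos (5.98 ± 0.07), Junb (3.31 ± 0.23), Maff (2.62 ± 0.24), Jun (1.93 ± 0.20) and Fosl2 (0.71 ± 0.20, and 0.37 on a dim further probe). Without the FOS and JUN family genes, a choice made after seeing the data, the median was 0.11. Against Fos, Junb, Maff and Jun the difference of Atf4 (0.46 ± 0.20) was small, while its range overlapped that of Fosl2.

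Relatives of single members were also read. Trib1, a Tribbles pseudokinase gene like Trib3, was at 0.71 ± 0.20 on its brighter probe and 0.71 on the other, while Trib2 was at 0.19 on its brighter probe and -0.09 on the other. Chac2, the constitutive relative of Chac1, was at 0.04. The mTORC1 regulators had a median of -0.03 over 20 of 21 genes. None was past 1.5-fold, against 1.19% of all measured genes higher and 0.881% lower. At 1.2-fold 1 was lower, Tsc2, and none was higher, against 5.57% and 6.19% of all measured genes. Of the sestrins and REDD1's relative, Sesn1 was at -0.07 with its probe inside an area of neighbouring spots that differed together, Sesn3 at 0.04 and Ddit4l at -0.05. The furthest from 0 were Tsc2 (-0.47 ± 0.21), Rheb (0.25 and 0.13 on its measured probes), the dim Rragd (0.16 ± 0.32) and Mlst8 (-0.13). Other targets of glucocorticoids and hypoxia, signals known to raise Ddit4, had a median of 0.04 over 9 of 11 genes. Adm was highest at 0.54 ± 0.21 and also read low, at 187 on the GnRH array and 137 on the vehicle array. Per1 was at 0.31, Sgk1 at 0.21 and the glucocorticoid target Tsc22d3 at -0.19.

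**Figure D4:**
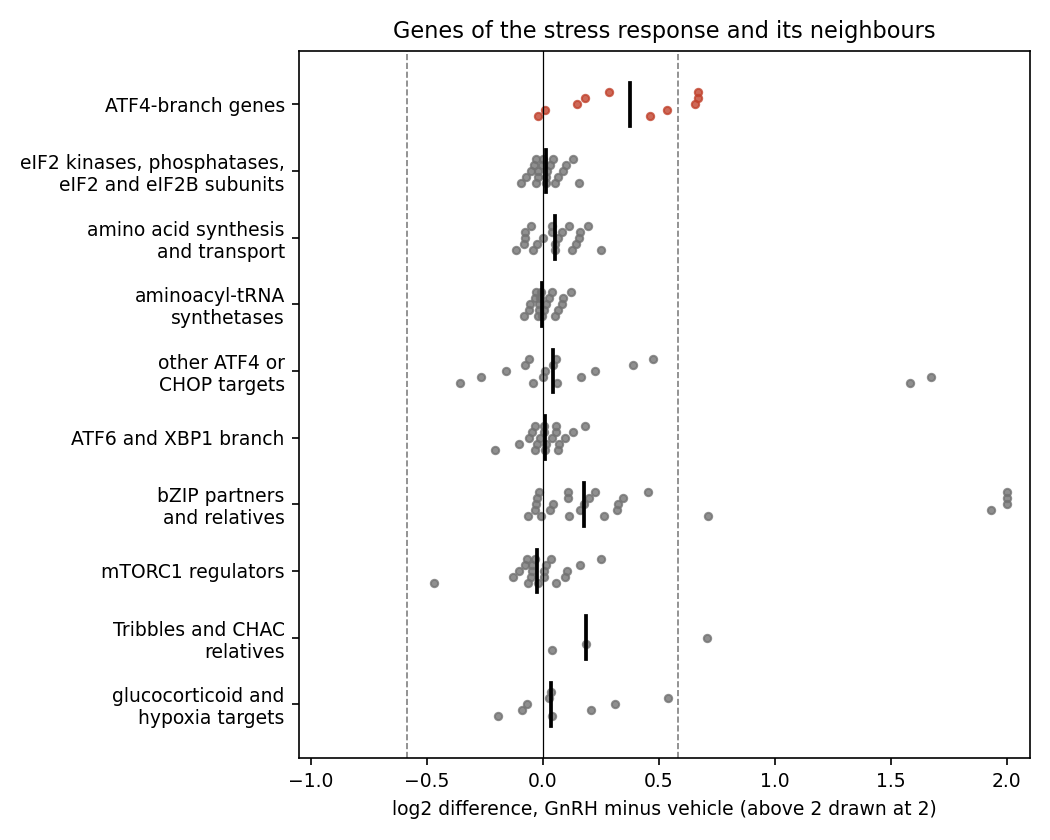
Each point is a measured gene's log2 difference (x axis, GnRH minus vehicle; values above 2 drawn at 2), grouped by list, with the 10 ATF4-branch genes in red at the top; black bars are medians and dashed lines mark 1.5-fold. The 10 genes have a median of 0.37, while those of amino acid supply (0.05), aminoacyl-tRNA synthetases (-0.01), the ATF6 and XBP1 branch (0.01) and the eIF2 list (0.01) lie close to 0.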

How the data were processed

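Cy3-labelled RNA of 1 GnRH and 1 vehicle sample was read on Agilent design 028005, whose coordinates are mm9, per the file headers. The deposited intensity values were background-subtracted and detrended within each array by Feature Extraction 10.7.1.1, per the file headers; version 9.5.1.1 stands in the submitters' processing notes. The authors' deposited values were linear intensities with a median of 28.4 in each column. They correlated with the scanner's log2 values at r = 1.00 across probes on each array. How they were normalized is not given in the sources used here. Their counts past 1.5-fold, 232 higher and 205 lower, equalled those with quantile normalization, so these settings are not separate checks. The other deposited scanner columns used were flags of 0 or 1.

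Outlier spots (94 on the GnRH array, 121 on the vehicle array) and control spots were left out. Log2 processed signals were averaged per probe and the array's 75th percentile over probes was subtracted. A probe was measured when at least 50% of its kept spots were well above background on both arrays, and a gene took its brightest such probe. Of the probes, 27235 were named through a RefSeq table (GRCm38.p6), and other probes by the gene name in the scanner file. Genes of like signal were those within 0.5 log2 units of mean signal. Areas were sought where spots within 2 rows and columns had a median raw difference of 0.3 or more in size, in at least 4 connected spots, widened by 2 spots; the 3 areas held 464 spots.

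The 10 genes, the lists and the 1.5-fold mark were chosen with earlier results of these data known. Named genes are the 10, up to 4 genes of each pathway list furthest from 0, and genes fixed by name (the eIF2 kinases, Ppp1r15b, Atf3, Gdf15, Hspa5, Dnajb9, Xbp1, Gnrhr, Gnrh1, Cga, Egr1, Fos, Gapdh). The cell type markers, Hprt, Actb, Tbp, Fgf21, Stc2, Gadd45a, Fosl2, Sesn1, Sesn3, Ddit4l and further probes of listed genes fall outside that rule. They were named after their values were seen. With 1 array per group there is no pattern across samples, so no gene was named for likeness. Steps were tested on simulated data. Alternatives changed scaling, background correction (normexp, offset 50, limma 3.58.1, or none), source of values, filters, probe rule, outlier spots, areas and fold. Python 3.11.15 and R 4.3.3 were used.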

Additional observations from a re-analysis of the deposited data

How the results depend on the processing

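The 10 genes kept their values within the scanner error under all 11 alternatives of scaling, background, source, filter, probe rule, outlier spots and areas. Several of these could hardly move them. Their probes passed both filters and lay outside the areas, so those settings left every value unchanged. None of their spots was an outlier, and the probe rule could change Atf4 only. Ppp1r15a ranged from 0.64 to 0.70, Chac1 from 0.64 to 0.68, Ddit4 from 0.63 to 0.66, Ddit3 from 0.49 to 0.54 and Atf4 from 0.43 to 0.46, so 3 genes were at least 1.5-fold higher in each. At 2-fold the count was 0 and at 1.2-fold 6, or 5 with median scaling, where Sesn2 was at 0.26. The median of 0.37 ranged from 0.35 to 0.37 over those alternatives and was 0.36 as a mean. The Tribbles and CHAC median of 0.19 was 0.05 with the mean over measured probes, and that of other stress-inducible targets, 0.05, ranged from 0.02 to 0.05. The medians of the eIF2 list (-0.02 to 0.02) and the ATF6 and XBP1 list (-0.02 to 0.01) changed sign around 0. The bZIP median of 0.18 was 0.11 without the FOS and JUN family genes, and that of other stress-inducible targets 0.01 without Atf3 and Gdf15, both chosen after seeing the data.

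The counts over all genes changed with several settings. The 253 genes at least 1.5-fold higher numbered 86 under normexp, 88 without background correction, 76 with the stricter filter, 2647 with no filter, 66 at 2-fold and 1314 at 1.2-fold. The 187 at least 1.5-fold lower became 23, 22, 21, 1666, 28 and 1181 under the same settings in that order. Of all genes past 1.5-fold, 57.5% were higher in the main values, 78.9% with normexp, 78.4% with the stricter filter, 70.2% at 2-fold and 80.0% with no background correction, against 51.1% with the lowess trend removed, 51.6% with median scaling and 53.1% with quantile normalization and with the authors' deposited values. For none of these was the cause tested. No paired analysis was possible because each group had 1 array, and no replicate could be left out.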
